A study of Drosophila melanogaster with 2 samples.

Results

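Of 84 nuclear respiratory chain and ATP synthase subunit genes, 12 had a reproducible Usf-GFP peak within 1 kb of a transcription start site (TSS). That was 14.3%, beside 15.3% of all protein-coding genes. For 11 of the 12, the strongest such peak also lay within 1 kb of a start of another protein-coding gene. The same held for 63.0% of all protein-coding genes with such a peak. The members were the protein-coding genes whose FlyBase symbol starts with ND-, COX, UQCR- or ATPsyn, with SdhA, SdhB, SdhC and SdhD. They were 84 of the 13968 protein-coding genes annotated on the chromosome arms. By symbol, 40 belonged to complex I, 4 to complex II, 9 to complex III, 16 to complex IV and 15 to ATP synthase. The rule goes by symbol and uses no measured value, but it was proposed with earlier results of these data known.

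The samples were whole Drosophila melanogaster embryos of mixed sex, 0 to 16 hours old, from a transgenic line with green fluorescent protein (GFP) fused to the C terminus of Usf. Chromatin bound by the fusion was collected with an antibody to GFP and sequenced (ChIP-seq). The group comprised 2 biological replicates, numbered 3 and 4, which were called against the same control alignment, and no other genotype, age or treatment was compared. The sources used here do not give what drives the fusion or whether untagged Usf remained in the line, and whole embryos mix all their cell types.

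Complex I takes electrons from NADH and complex II takes them from succinate, complex III passes them to cytochrome c, and complex IV passes them to oxygen. Complexes I, III and IV move protons across the inner mitochondrial membrane, and ATP synthase uses the returning protons to make ATP. Many of these subunits are encoded in the nucleus, and several have a second gene in flies, marked by a final L in the symbol. Usf belongs to the basic helix-loop-helix leucine zipper factors, a family that recognises E-boxes, whose general form is CANNTG and of which CACGTG is the best known Usf site in vertebrates.

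Peaks were taken from the authors' lists on dm6. The relaxed lists held 28459 peaks for replicate 3, 29246 for replicate 4 and 21315 for the pooled reads, and the list filtered by the irreproducible discovery rate (IDR, a measure of how well peak ranks recur between replicates) held 2767. The 2767 IDR peaks were the strongest 2767 of the pooled list, with the authors' signal from 71.3 to 1798.4 and a median of 118.9. The signal has no stated scale, so it orders peaks within 1 list only. Read depth is unknown. All values describe the peaks of these 2 samples, and no test was made, because there was 1 group.

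The share of members with an IDR summit was close to that of coding genes in general. The 12 members are 14.3% of 84 (95% Wilson interval 8.37 to 23.3, which covers counting error over genes), and the background was 15.3% of 13968 coding genes. A summit of the relaxed pooled list lay within 1 kb of 50 members, or 59.5%, beside a background of 48.2%. No interval was taken for that share, and the difference was not tested. Of the 50 members, 38 had a relaxed summit outside the IDR list as their strongest, and the other 34 members had no pooled summit within 1 kb. Among the 12 members the median pooled signal was 115.8, beside 134.2 for all coding genes with an IDR summit. A signal at least as high as that of the strongest member, ND-MWFE, was found at 294 coding genes, itself included, which were 13.8% of those with an IDR summit.

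**Figure D1:**
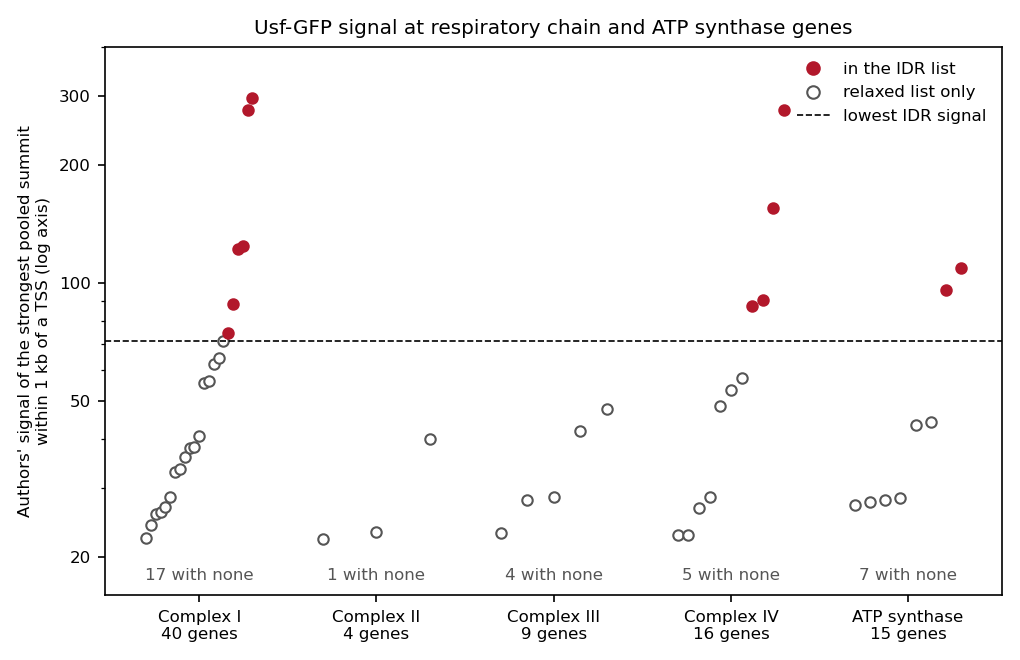
The authors' pooled signal (log axis) of the strongest summit within 1 kb of a TSS is plotted for each member by complex, filled where the summit is in the IDR list and open where it is in the relaxed list only. Complexes I and IV and ATP synthase hold 6, 4 and 2 filled points above the dashed line at 71.3, and complexes II and III hold none.

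The DNA between back-to-back starts is shown for the 6 members whose IDR summit is intergenic, because there the peak has the member on 1 side and another gene on the other. Each sequence runs 5′ to 3′ on the member's strand, from the base after the neighbour's start to the base before the member's own start, except that of COX8, which is the 150 bases nearest the neighbour out of 414. Capitals mark the 21 bases centred on the pooled summit. They were read from the Release 6 genome at chr3R:22027481-22027708 for ND-42, chr2L:6062758-6062988 for ND-51, chr3L:12138585-12138867 for ND-SGDH, chr2L:6557503-6557799 for COX5B, chrX:19744336-19744430 for COX6B and chr3L:21539712-21539861 for COX8. The members ND-42 and COX5B are on the plus strand and the other four on the minus strand.
ND-42: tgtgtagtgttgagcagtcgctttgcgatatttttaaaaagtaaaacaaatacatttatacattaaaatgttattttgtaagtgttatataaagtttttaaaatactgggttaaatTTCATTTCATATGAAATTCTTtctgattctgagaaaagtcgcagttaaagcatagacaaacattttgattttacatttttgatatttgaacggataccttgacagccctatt
ND-51: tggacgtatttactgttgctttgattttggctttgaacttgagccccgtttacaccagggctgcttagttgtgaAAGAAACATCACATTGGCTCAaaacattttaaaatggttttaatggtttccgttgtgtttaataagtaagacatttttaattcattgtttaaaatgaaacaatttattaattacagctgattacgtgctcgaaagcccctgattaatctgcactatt
ND-SGDH: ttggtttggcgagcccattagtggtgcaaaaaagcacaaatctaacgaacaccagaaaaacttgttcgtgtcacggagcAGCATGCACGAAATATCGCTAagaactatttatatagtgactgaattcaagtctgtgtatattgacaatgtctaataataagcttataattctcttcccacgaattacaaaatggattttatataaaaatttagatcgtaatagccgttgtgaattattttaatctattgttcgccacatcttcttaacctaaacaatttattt
COX5B: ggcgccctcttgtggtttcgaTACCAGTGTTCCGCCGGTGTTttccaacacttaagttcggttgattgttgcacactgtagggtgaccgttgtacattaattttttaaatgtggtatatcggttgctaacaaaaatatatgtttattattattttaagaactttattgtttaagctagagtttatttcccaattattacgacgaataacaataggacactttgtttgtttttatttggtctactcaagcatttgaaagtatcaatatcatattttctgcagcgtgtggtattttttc
COX6B: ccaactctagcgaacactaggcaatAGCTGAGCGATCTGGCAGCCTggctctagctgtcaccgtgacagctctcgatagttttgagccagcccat
COX8: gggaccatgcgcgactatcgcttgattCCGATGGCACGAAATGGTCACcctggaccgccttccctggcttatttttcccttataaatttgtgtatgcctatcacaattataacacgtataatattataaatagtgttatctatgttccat

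The E-box CACGTG occurred in 0 of these 6 sequences, and an E-box of the general form CANNTG occurred in 3 of them. In the ND-42 sequence CATATG began at base 124, inside the capitals, and its centre was 0.5 bp from the pooled summit. The replicate summits there were 15 bp away from the pooled one in replicate 3 and 67 bp away in replicate 4. Replicate 4 held a further, weaker summit 155 bp away on the other side of the pooled one (24.5, beside 35.0 for the nearer). The ND-51 sequence held CAGCTG from base 188, 105.5 bp from the summit, and the COX5B sequence held CATTTG from base 249, 219.5 bp from the summit. The sequences of ND-SGDH, COX6B and COX8 held no CANNTG. The printed stretches do not cover the full 100 bp to each side of every summit. Within 100 bp of the summit, COX5B, COX6B and COX8 did have a CANNTG, outside the printed bases.

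In complex I, 6 of 40 members had an IDR summit (15.0%, beside the background of 15.3%), and the accessory subunit genes ND-MWFE and ND-ASHI had the strongest of these. The ND-ASHI peak (chrX:6679249-6679507) had its summit 251 bp upstream of the ND-ASHI start and 271 bp upstream of the start of Fum1, which encodes fumarase of the citric acid cycle. Its pooled signal was 277.0 (rank 304 of the pooled list). Replicate 3 gave 165.6 (rank 250) and replicate 4 gave 116.6 (rank 369). ND-ASHI and Fum1 are read in opposite directions, and the summit is annotated as intron of Fum1. The ND-MWFE peak (chr2R:13158390-13158649) had a pooled signal of 297.3 (rank 259). Replicate 3 gave 152.3 (rank 296) and replicate 4 gave 146.9 (rank 233). Its summit lay 135 bp upstream of ND-MWFE and 86 bp upstream of TppII, which encodes the large protease tripeptidyl-peptidase II, in an intron of TppII. Both genes were high in both replicates, within the first 400 peaks of every list.

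The other complex I summits were weaker. ND-51, which encodes the flavin-bearing subunit that oxidises NADH, had a peak at chr2L:6062706-6063101 with a signal of 124.6 (rank 1295). Replicate 3 gave 59.7 (rank 1586) and replicate 4 gave 63.1 (rank 1134). The summit was 147 bp upstream of ND-51 and 85 bp upstream of CG13994. The accessory subunit gene ND-SGDH had a peak at chr3L:12138580-12138975 with a signal of 122.4 (rank 1335). Replicate 3 gave 63.6 (rank 1450) and replicate 4 gave 59.0 (rank 1262). That summit was 194 bp upstream of ND-SGDH and 90 bp upstream of RhoGAP68F. Both genes ranked between 1134 and 1586 in each replicate.

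ND-42 and ND-49 were the lowest of complex I and were less even between replicates. ND-42, an accessory subunit gene, had a peak at chr3R:22027409-22027804 with a signal of 88.5 (rank 2090). Replicate 3 gave 62.5 (rank 1493) and replicate 4 gave 35.0 (rank 2713). Its summit was 102 bp upstream of ND-42 and 127 bp upstream of Cchl, which encodes the lyase that attaches haem to cytochrome c. ND-49 encodes a core subunit near the quinone site, and its peak at chr4:570827-571222 had a signal of 74.5 (rank 2611), close to the lowest of the IDR list. In replicate 4 that summit had a signal of 50 (rank 1653), and in replicate 3 no relaxed summit lay within 1 kb of it. It was the only one of the 12 not matched in both replicates within 100 bp. The summit was annotated as intron of ND-49, 235 bp upstream of its nearest start and 730 bp upstream of Ephrin, which encodes the ligand of the Eph receptor. Of the 7 core subunit genes of complex I in the nucleus, ND-51 and ND-49 had an IDR summit (28.6%, Wilson interval 8.22 to 64.1) and 6 had a pooled one. Among the 26 other complex I genes without a final L, 4 had an IDR summit (15.4%, interval 6.15 to 33.5) and 15 a pooled one. The intervals of the IDR shares overlap and both hold the background of 15.3%. The pooled shares were 85.7% of the 7 and 57.7% of the 26, beside a background of 48.2%. No interval was taken for the pooled shares, and the differences were not tested.

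Complexes II and III had no IDR summit within 1 kb of any member. That is 0 of 4 for succinate dehydrogenase, which leaves an upper Wilson bound of 49.0%, and 0 of 9 for complex III, with an upper bound of 29.9%, so the background of 15.3% lies inside both intervals. SdhC, a membrane anchor, had a relaxed summit of 40.1 (rank 5856) 348 bp upstream, matched in replicate 3 (21.4, rank 8156) and not in replicate 4. Tctp also had a start within 1 kb of it. SdhB, the iron-sulfur subunit, had one of 23.1 (rank 19334), 32 bp upstream, again matched in replicate 3 only (12.8, rank 28265). Both summits were thus matched in 1 replicate, and SdhA, the flavoprotein, had none. In complex III, UQCR-C2, a core protein gene, had a relaxed summit of 47.8 (rank 4551) in a coding exon of the neighbouring proteasome gene Rpn12, 437 bp upstream, with 19.1 in replicate 3 and 22.8 in replicate 4. UQCR-11, a small subunit gene, had one of 41.9 (rank 5469) 100 bp upstream, with 35.3 in replicate 4 (rank 2684) and no match in replicate 3.

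In complex IV, 4 of 16 members had an IDR summit (25.0%, Wilson interval 10.2 to 49.5, which holds the background of 15.3%), led by COX8. The COX8 peak (chr3L:21539723-21539969) had a pooled signal of 276.9 (rank 305). Replicate 3 gave 148.6 (rank 308) and replicate 4 gave 125.7 (rank 319). Its summit was 377 bp upstream of COX8 and 38 bp upstream of VhaM9.7-b, a subunit gene of the vacuolar proton pump. The strongest complex IV peak was nearest to a gene of another proton pump. COX6B encodes a subunit on the outer face of the inner membrane, and its peak at chrX:19744197-19744592 had a signal of 90.5 (rank 2026). Replicate 3 gave 39.3 (rank 2819) and replicate 4 gave 46.5 (rank 1824). The summit was 60 bp upstream of the start that COX6B shares with CG18809, and 36 bp upstream of the start that CG33932 shares with Rpp20, a gene for an RNase P and MRP protein. COX5B had a peak at chr2L:6557336-6557731 with a signal of 87.5 (rank 2119). Replicate 3 gave 45.7 (rank 2285) and replicate 4 gave 40.5 (rank 2225). That summit was 266 bp upstream of COX5B and 32 bp upstream of IFT52, an intraflagellar transport gene.

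COX7AL2, a gene like COX7A, was set apart among the 12. Its peak (chr2L:2197213-2197608) had a signal of 155.4 (rank 897). Replicate 3 gave 85.2 (rank 891) and replicate 4 gave 70.8 (rank 941). The summit lay in 5′ UTR, 501 bp downstream of the outermost of its 3 starts, and no other coding gene had a start within 1 kb. The next start of COX7AL2 was 4902 bp from the outermost one. COX7A itself had no relaxed summit within 1 kb.

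In ATP synthase, ATPsynbeta and ATPsynE were the 2 of 15 members with an IDR summit (13.3%). ATPsynbeta encodes the catalytic subunit, and its peak at chr4:1030779-1031174 had a signal of 109.2 (rank 1584). Replicate 3 gave 52.4 (rank 1902) and replicate 4 gave 60.1 (rank 1222). The summit was 507 bp upstream of ATPsynbeta and 2 bp upstream of a start of CG11076, in an intron of CG11076. ATPsynE, the gene of the small subunit e, had 2 IDR summits. The stronger (chr3R:14326761-14327156) had a signal of 96.1 (rank 1875) and lay in 5′ UTR 12 bp downstream of the start. Replicate 3 gave 44.4 (rank 2387) and replicate 4 gave 43.8 (rank 2002). Afti, the aftiphilin gene, is read from the opposite strand and started 270 bp from the summit, on the same side of it as the ATPsynE start. The weaker (chr3R:14327655-14328050) had a signal of 88.6 (rank 2087), with 45.8 in replicate 3 and 39.1 in replicate 4, 785 bp downstream of the ATPsynE start and 198 bp upstream of spn-B, a gene for meiotic DNA repair.

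**Figure D2:**
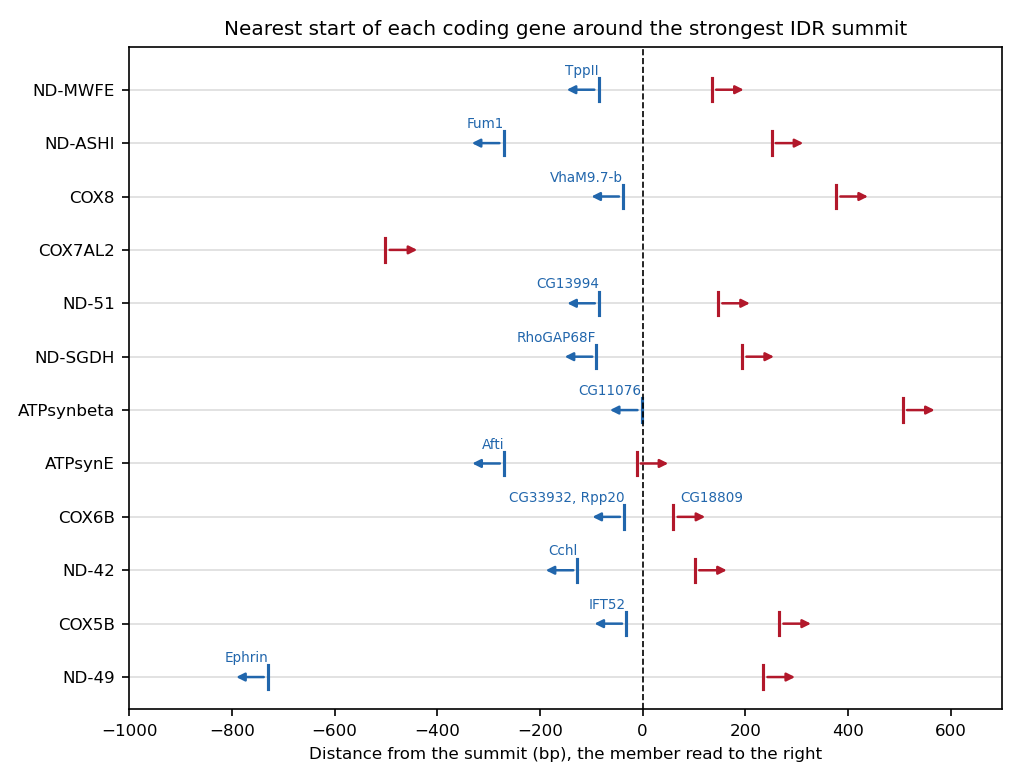
Each line is 1 of the 12 members with an IDR summit, ordered by pooled signal, with the summit at 0 and the nearest start of each coding gene within 1 kb as a bar with its reading direction (member in red, others in blue; horizontal axis in bp). In 10 of 12 the summit lies between the member's start and a start read the other way, and COX7AL2 has no second gene.

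Most of these summits lay between 2 starts read in opposite directions. The summit lay within 1 kb of another coding gene's start for 11 of the 12 members (91.7%), beside a background of 63.0% of the 2131 coding genes with an IDR summit. In all 11 a start was read from the opposite strand. In 10 the summit lay upstream of the nearest start of both genes, beside 1067 of the 2131 coding genes (50.1%). These differences were not tested. Of those 10 summits, 6 were intergenic and 4 lay in an intron of 1 of the pair: ND-49, ND-ASHI, ND-MWFE and ATPsynbeta. The member was the nearest coding gene for 5 of the 12 (ND-42, ND-49, ND-ASHI, COX7AL2 and ATPsynE), so if each summit is given only to its nearest coding gene, 5 of 84 members remain (5.95%), beside a background of 10.8%. A peak list cannot tell which of 2 neighbouring genes a summit belongs to.

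Members with a back-to-back neighbour held most of the IDR summits, as did coding genes in general. Of 36 members with a coding gene starting head to head within 1 kb, 8 had an IDR summit (22.2%), beside a background of 26.9% of 4650 such coding genes. Of the 48 members without one, 4 had an IDR summit (8.33%), beside 9.47% of 9318. Head to head was counted from the outermost ends of the genes, which leaves out ND-ASHI, ND-MWFE and ATPsynbeta, whose neighbours have a longer transcript that spans the summit. In both arrangements the background lay inside the Wilson interval of the members' share (11.7 to 38.1% and 3.29 to 19.6%).

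**Figure D3:**
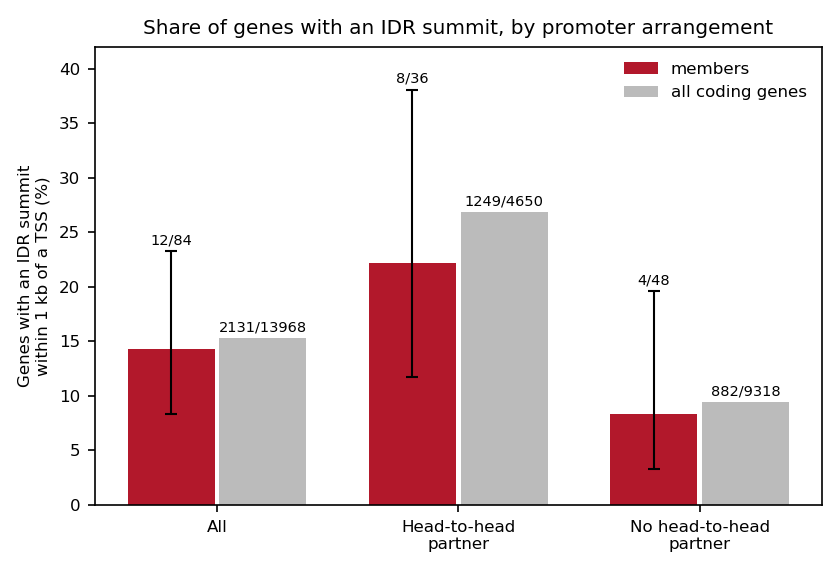
Bars give the percentage of genes with an IDR summit no more than 1 kb from a start, for members (red; 95% Wilson intervals over genes) and for all coding genes (grey), over all genes and by whether a coding gene starts head to head. The grey values of 15.3, 26.9 and 9.47% all lie inside the members' intervals.

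Summits lay close to the members' starts, mostly upstream. The distance from the summit to the member's nearest start had a median of 214.5 bp over the 12 members, beside 188.0 bp over all coding genes with an IDR summit. The summit was within 300 bp in 9 of 12, beside 1564 of the 2131 coding genes with an IDR summit. It was upstream in 10 of 12, and the share of all coding genes with an upstream summit is not given here. The members farthest from their summits were ATPsynbeta at 507 bp and COX7AL2 at 501 bp, so the count of 12 was the same at 750 as at 1000 bp, and the nearest outside 1 kb were ATPsynCF6 at 1046 bp and ND-B14 at 1206 bp. Of the 12 summits, 6 were intergenic, 4 lay in introns, 2 in 5′ UTRs and 0 in coding exons. Over all 2767 IDR summits, 43.3% were intergenic, 45.4% intronic, 6.83% in 5′ UTRs and 0.325% in coding exons. Unlike the 12, these were not limited to summits within 1 kb of a start.

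Both replicates held 11 of the 12 summits within 100 bp (91.7%), beside 2024 of the 2131 coding genes with an IDR summit. In 10 of those 11 the summit ranked within the first 2767 peaks of both replicate lists, and the exception was COX6B, at rank 2819 of replicate 3. When the first 2767 peaks of a single replicate list were used in place of the IDR list, replicate 3 gave 10 members, without COX6B and ND-49, and replicate 4 gave all 12 together with ND-AGGG and UQCR-11. Of the relaxed summits most were matched in 1 replicate: 13 of the 38 relaxed-only members (34.2%) were matched in both replicates, 18 in replicate 3 only and 7 in replicate 4 only, beside 33.8% matched in both among the 4596 coding genes of that kind.

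**Figure D4:**
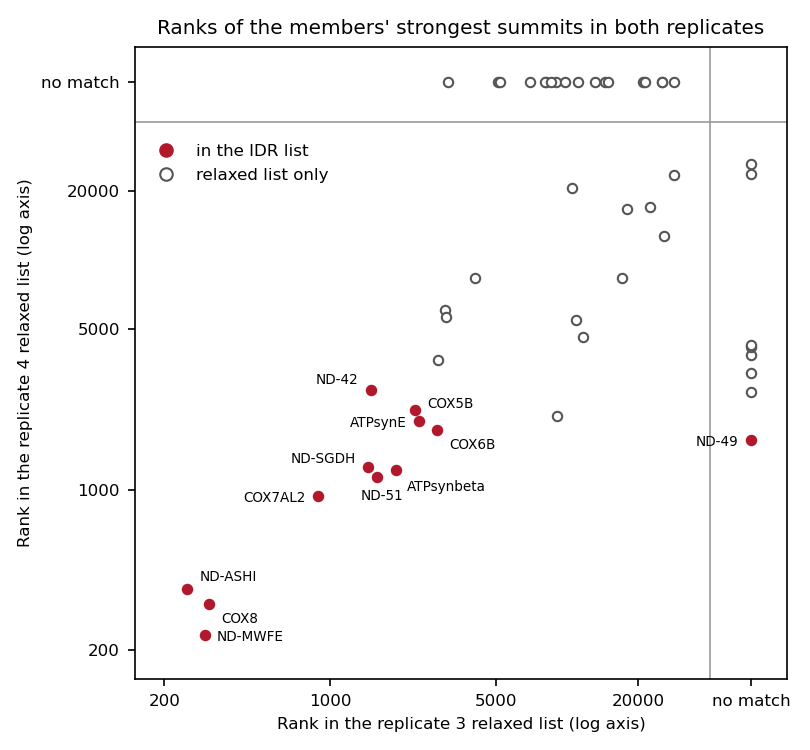
Each point is 1 of the 50 members with a pooled summit within 1 kb of a TSS, by its rank in the replicate 3 list (horizontal, log axis) and the replicate 4 list (vertical, log axis), filled for the IDR list, with summits that have no match within 100 bp in the outer strips. ND-MWFE, ND-ASHI and COX8 lie in the lower left corner with ranks from 233 to 369, and ND-49 is the filled point without a match in replicate 3.

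The 38 members with only a relaxed summit ran down from the edge of the IDR list into the weakest peaks. Their pooled signal was from 22.2 to 71.3 with a median of 30.6, beside 31.7 for all coding genes with only a relaxed summit. The accessory complex I gene ND-B17 was just below the IDR list, at rank 2768, with a signal of 71.3 at 118 bp upstream. Replicate 3 gave 39.0 (rank 2845) and replicate 4 gave 28.4 (rank 3665). ND-AGGG, another accessory gene of complex I, had 64.5 (rank 3139) at 180 bp upstream, and was uneven. Replicate 3 gave 20.5 (rank 9098) and replicate 4 gave 42.3 (rank 2097). In complex IV, COX5A had 57.2 (rank 3633) 58 bp upstream, beside a start of glo, with 36.4 in replicate 3 and 22.5 in replicate 4. COX4 had 53.2 (rank 3934) in a coding exon 658 bp downstream, with 26.3 in replicate 3 and no match in replicate 4. In ATP synthase, ATPsynC, the gene of the membrane ring subunit, had 44.1 (rank 5075) 138 bp upstream, with 21.5 in replicate 3 and no match in replicate 4. ATPsynCF6, a stalk subunit gene, had 43.4 (rank 5186) 197 bp upstream, with 29.9 in replicate 3 and 18.9 in replicate 4. Summits in coding exons made up 8 of the 38. Over all pooled peaks outside the IDR list, at any distance from a start, they made up 15.1%.

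The 34 members without a pooled summit within 1 kb came from all 5 groups. In complex I they were ND-13A, ND-13B, ND-19, ND-20, ND-24L, ND-49L, ND-51L1, ND-51L2, ND-ACP, ND-B12, ND-B14, ND-B14.5A, ND-B14.5AL, ND-B14.5B, ND-B16.6, ND-B8 and ND-PDSW. In complex II it was SdhA, and in complex III they were UQCR-14L, UQCR-6.4, UQCR-C1 and UQCR-Q. In complex IV they were COX6AL, COX6AL2, COX7A, COX7AL and COX7CL, and in ATP synthase ATPsynB, ATPsynCF6L, ATPsynD, ATPsynF, ATPsynG, ATPsynGL and ATPsynepsilonL. A gene outside the lists may still carry signal below the authors' threshold, which these files do not show.

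Genes whose symbol ends in L, or in L and a digit, had an IDR summit in 1 of 22 cases (COX7AL2, 4.55%, Wilson interval 0.807 to 21.8), and the other members in 11 of 62 (17.7%, interval 10.2 to 29.0). The intervals overlap, and the background of 15.3% lies in both. The rule also took in ND-MNLL, whose final L belongs to the subunit's name and marks no second gene, and without it the count was 1 of 21. For 17 of the L genes the gene of the same name without L was a member too. In 5 of those pairs the gene without L had an IDR summit and the L gene had none: ATPsynbeta, COX5B, ND-49 and, against both of its copies, ND-51. COX7AL2 against COX7A was the only pair the other way.

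Beyond 1 kb, 8 more members had an IDR summit within 2 kb. The strongest was at ATPsynCF6, with a signal of 171.3 (rank 751) 1046 bp upstream, where Sec13 was the nearest coding gene. COX7C, a small complex IV subunit gene, had 137.9 (rank 1107) 1921 bp upstream and was itself the nearest coding gene. ND-39 had 107.3 at 1585 bp downstream, nearest to the zinc transporter gene ZnT77C, and the other five were ND-B14, ATPsyndelta, ND-B22, COX5BL and SdhC, with signals from 76.1 to 87.5. COX5BL was reached by the COX5B summit. The share of members with an IDR summit was 23.8% at 2000 bp beside 18.9% of coding genes, and 40.5% at 5000 bp beside 30.1%, while up to 1500 bp the curves differed little (16.7 and 17.0%). The gap at longer distances was not tested.

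**Figure D5:**
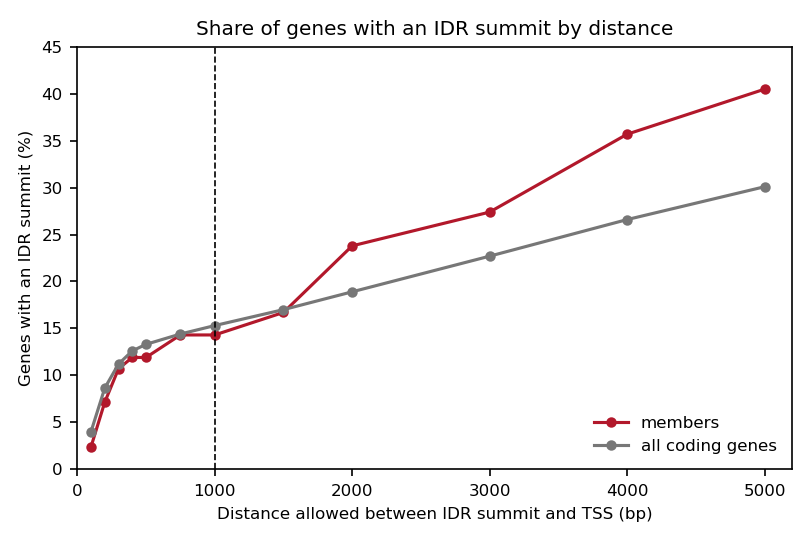
The percentage of members (red, of 84) and of all coding genes (grey, of 13968) with an IDR summit within a given distance of any TSS is plotted against that distance in bp, with the 1 kb limit dashed. The curves run together up to 1500 bp, and at 5000 bp the members stand at 40.5% and coding genes at 30.1%.

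The sequence at the summits held few E-boxes of the CACGTG form. Searched on both strands within 100 bp of the summit, CACGTG was in 0 of the 12 windows of the members and in 68 of all 2767 IDR windows (2.46%). CANNTG, which includes CACGTG, was in 6 of the 12 (ND-42, ND-ASHI, COX5B, COX6B, COX7AL2 and COX8) and in 57.7% of all IDR windows. The DRE core TATCGATA was in 1 of 12, at ATPsynE, and in 2.71% of all. GC content within 50 bp of the summit ran from 23.8 to 55.4% with a median of 32.1%, beside 32.7% over all IDR summits. COX5B (54.5%), COX6B (55.4%) and COX8 (52.5%), all of complex IV, were at 50% or more, as were 136 of all 2767 (4.92%). The other complex IV gene with an IDR summit, COX7AL2, had the lowest value of the 12, 23.8%.

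Promoters of the members, taken from 250 bp upstream to 50 bp downstream of the outermost start, were searched for the same motifs and for a core promoter motif. GGTCACACT, the core of a motif common in fly core promoters, was in 15 of 84 (17.9%), 14 of them among the 62 genes that do not end in L (22.6%), and in 6.04% of all 13968 coding promoters. Of these 15 members, ND-MWFE and COX5B had an IDR summit and 13 had none, where 15.3% of all coding genes had one. The motif was in 0 of the 12 summit windows, beside 30 of all 2767 IDR windows (1.08%). CACGTG was in 4 promoters (ND-PDSW, UQCR-6.4L, COX7C and ATPsynepsilonL), or 4.76%, beside 4.2% of all, and none of those 4 genes had an IDR summit within 1 kb. TATCGATA was in 9 (10.7%), beside 9.36%, and CANNTG in 65 (77.4%), beside 77.2%. These are matches of letters in a window, and the differences were not tested.

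Other genes of these pathways with an IDR summit included cytochrome c, citric acid cycle and assembly factor genes. Of 11 subunit and cytochrome c genes that the symbols leave out, 4 had one: blw, the ATP synthase alpha subunit (176.2, 194 bp upstream, matched in replicate 4 only), levy, a complex IV subunit (108.4, 173 bp upstream), and the cytochrome c genes Cyt-c-p (99.5, 983 bp downstream) and Cyt-c-d (180.2, 396 bp downstream). With these 11 genes added, 16 of 95 had an IDR summit (16.8%). Of 15 pyruvate dehydrogenase and citric acid cycle genes, 5 had one: Pdhb (143.0), the aconitase gene mAcon1 (161.8), the isocitrate dehydrogenase subunit genes Idh3b (91.5) and Idh3g (278.6), and Fum1 (277.0) through the summit it shares with ND-ASHI. Of 6 assembly factor genes, CIA30, for complex I, had the strongest summit of all these lists (355.9, rank 193, 137 bp upstream; 201.7 in replicate 3 and 157.2 in replicate 4). Cox17, a copper chaperone for complex IV, had 159.6 at 73 bp upstream, matched in replicate 4 only. Of 8 genes for mitochondrial DNA expression and its nuclear regulators, among them TFAM and srl, 0 had an IDR summit, with an upper Wilson bound of 32.4% that takes in the background of 15.3%, and 5 had a relaxed one.

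Over these 4 lists, 11 of 40 genes had an IDR summit (27.5%), beside the background of 15.3%. For comparison, 16 of 34 vacuolar proton pump genes (47.1%) and 15 of 73 mitochondrial ribosomal protein genes (20.5%) did. By nearest coding gene only, the 4 lists in order kept 2 of 11, 3 of 15, 1 of 6 and 0 of 8 genes. The vacuolar proton pump genes kept 13 of 34 and the mitochondrial ribosomal protein genes 5 of 73, beside a background of 10.8%. None of these differences was tested, and all lists were chosen with results of these data known. By chromosome arm, the members with an IDR summit were 2 of 12 on X (background 15.0%), 3 of 16 on 2L (15.2%), 1 of 17 on 2R (13.8%), 2 of 19 on 3L (16.2%) and 2 of 18 on 3R (16.2%). On chromosome 4 both members, ND-49 and ATPsynbeta, had one, beside a background of 10.0% of its 80 coding genes, a count over 2 genes whose Wilson interval reaches down to 34.2%.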

How the data were processed

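ChIP-seq peak lists of 2 replicates were used, with no control library among the samples analysed here. Each peak carries the authors' signal and summit in narrowPeak layout. Per the deposited notes, the relaxed lists (replicate 3, replicate 4 and pooled reads) fed the IDR filter. Which aligner, caller and threshold were used is not given in the sources used here. The dm3 lists were not used.

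dm6 summits were placed on the Release 6 genome and the Ensembl 115 annotation (FlyBase 6.54), which hold 18277 genes on the arms. Of 30618 start codon features, 30565 (99.8%) read ATG, and 0 peaks ran past a chromosome end. A gene had a peak when a summit lay within 1 kb of any of its TSSs. Replicate summits were matched within 100 bp, and the strongest match was taken. Positions count from 1. Python 3.11.15, pandas 2.3.3 and NumPy 2.4.6 were used, and the joining was tested on simulated summits placed at known distances.

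With 1 group, no test was made, and 95% Wilson intervals were taken for shares of genes with an IDR summit. Every member with an IDR summit was named, with the 2 strongest relaxed-only members per complex, those at 1 to 2 kb, members with no summit, genes sharing a summit and pathway genes with an IDR summit. The members, lists and rules were chosen with earlier results of these data known. The symbol Nc73EF had no match in the annotation and was left out. A further planned motif, the nuclear respiratory gene element, is not reported, because its letters could not be checked against a source. Alternatives were other distances, list thresholds, single replicates, nearest genes, whole peaks, outermost starts, motif windows and matching distances.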

Additional observations from a re-analysis of the deposited data

How the results depend on the processing

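Of 50 alternatives, 34 kept a count within 1.5 times of the reported one, or the median distance within the SD of 24.0 bp between the replicates' medians, and 16 did not. The count of members with an IDR summit, 12, became 20 at 2 kb, 6 with the stronger 50% of the IDR list, 24 with 2 times as many pooled peaks and 5 with the nearest coding gene only. The shares of coding genes under these 4 settings were 18.9, 8.97, 24.2 and 10.8%. For genes not ending in L, 11 became 18, 5, 23 and 4 in that order, and for genes ending in L, 1 became 0 at 500 bp and 2 at 2 kb. The number of members sharing their summit, 11 of 12, became 18 of 20 at 2 kb, 5 of 6 with the stronger 50% and 18 of 24 with 2 times the pooled peaks. Without replicate 3 it was 11 of 14, and without replicate 4 it was 9 of 10. The shares of all coding genes sharing their summit under these settings are not given here. The median distance of 214.5 bp became 170.5 at 500 bp and 442.0 at 2 kb. CACGTG was in 1 window, at ATPsynbeta, when windows reached 200 bp to each side of the summit. What lies behind each change was not tested.

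Without replicate 3 the count was 14, without replicate 4 it was 10, and the pooled relaxed count of 50 became 53 and 55. The relaxed count was 37 of 84 members at 500 bp, beside 37.4% of coding genes. At 2 kb it was 58 of 84, beside 61.8%. Both were within 1.5 times. The count for ND-MNLL moved between the lists was chosen after seeing the data. No paired analysis was possible because there was 1 group. Read depth is unknown, no control library was analysed here, the signal has no stated scale, and a summit between 2 starts cannot be given to either gene.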
